A study of Rattus norvegicus with 8 samples.

Results

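The genes described here build the extracellular matrix of brain vessels and meninges: collagens, basement membrane proteins, small proteoglycans, the enzymes that remodel them, and a pair of meningeal markers. The set held 44 genes, chosen by gene symbol from a list of matrix genes, out of 14217 genes that the array's annotation names by a single symbol. This list was drawn up with earlier results of these data known. They were read by 74 probe sets, groups of short probes against a transcript, on Affymetrix Rat Genome 230 2.0 arrays. With 1 probe set per gene, the one with the highest mean, 38 of the 44 genes lay above the level filter, an intensity of about 26, and were tested.

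For 4 arrays, labelled BVi, adult male Wistar rats were given 5 µl of a baculovirus vector in the striatum, 50000000 particles at a pair of sites. The vector had first lost its infectivity through 1 hour of short-wave ultraviolet radiation (254 nm). Baculoviruses infect insects and can enter mammalian cells without multiplying there. The other 4 arrays, labelled PBSi, came from striatum given 5 µl of saline buffered with phosphate (PBS) in the same way. All tissue was taken 48 hours after the injection, so both groups carry a needle track, and no uninjected brain was part of the comparison. The labels name Wistar in the source of every array but leave the strain field of PBS replicate 2 empty. The design text speaks of 7 rats and of saline on the opposite side of the brain, and no label ties an array to a rat. If the 8 arrays all came from these rats, some share an animal, and the p-values measure the spread between these arrays.

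The matrix of the brain is unevenly spread. Around blood vessels and under the pia, laminins, type IV collagen, nidogens and perlecan form basement membranes, the thin sheets on which endothelial cells and astrocyte end-feet rest. Fibrillar collagens and the small leucine-rich proteoglycans that coat them lie mainly in the meninges and in the sheath of larger vessels, where fibroblasts make them. After a wound these fibroblasts and the vessel wall are known sources of new matrix.

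Type IV collagen is shown here by its gene starts, because Col4a1 and Col4a2 lie head to head. By their brightest probe sets they had fold changes of opposite sign, given below, but the sign of Col4a1 differed between its tested probe sets. On chromosome 16 of the GRCr8 assembly (RefSeq) their starts are 77 bases apart on opposite strands. Their promoter windows, 250 bases before to 50 after each start, share 176 bases. The windows are Col4a1 on the plus strand at chr16:84885347-84885646 and Col4a2 on the minus strand at chr16:84885471-84885770. The window of Col1a2, a fibrillar collagen on the plus strand at chr4:33518307-33518606, is set beside them. Each is written 5′ to 3′ in lower case, with capitals for motifs found on either strand. These were the CCAAT motif, the GC box written GGGCGG, the TATA box written TATAAA and the AP-1 site written TGACTCA.
Col4a1 promoter: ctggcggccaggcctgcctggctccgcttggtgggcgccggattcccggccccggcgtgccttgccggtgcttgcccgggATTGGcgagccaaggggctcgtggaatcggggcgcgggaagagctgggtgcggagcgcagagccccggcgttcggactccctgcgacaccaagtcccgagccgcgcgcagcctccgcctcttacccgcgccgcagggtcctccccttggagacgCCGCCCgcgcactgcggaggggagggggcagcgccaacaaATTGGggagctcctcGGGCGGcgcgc
Col4a2 promoter: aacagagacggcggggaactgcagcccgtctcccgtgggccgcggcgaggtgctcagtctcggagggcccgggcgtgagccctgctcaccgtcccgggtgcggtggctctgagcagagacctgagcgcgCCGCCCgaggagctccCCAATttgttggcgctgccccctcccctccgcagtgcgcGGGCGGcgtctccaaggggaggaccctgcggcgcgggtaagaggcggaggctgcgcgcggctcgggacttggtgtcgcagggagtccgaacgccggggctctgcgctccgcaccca
Col1a2 promoter: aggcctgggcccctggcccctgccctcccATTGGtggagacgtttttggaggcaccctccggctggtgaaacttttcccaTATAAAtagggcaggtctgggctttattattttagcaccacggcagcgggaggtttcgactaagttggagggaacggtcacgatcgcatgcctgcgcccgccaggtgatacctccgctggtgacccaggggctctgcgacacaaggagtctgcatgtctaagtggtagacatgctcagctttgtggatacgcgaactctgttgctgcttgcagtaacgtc
The Col4a1 window held 2 CCAAT motifs and 2 GC boxes, and the Col4a2 window 1 CCAAT motif and 2 GC boxes. All motifs of the Col4a2 window lie in the shared 176 bases, so they are sites of the Col4a1 window read from the other strand. That of Col1a2 held 1 CCAAT motif, 1 TATA box and no GC box. Of the 44 genes, 29 had a promoter entry, and 18 of these (62.1%) held a GC box, with Col4a1 and Col4a2 both counted for their shared sites. Among all 33469 promoters listed, more than the 14217 genes of the array, the share was 33.1%. The difference was not tested. CCAAT was in 37.9% of the members' windows and 37.5% of all, TATAAA in 13.8% and 14.2%, and TGACTCA in 3.45% and 4.63%. These are matches of letters and not shown to be bound.

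The comparison asked how the matrix genes stood after the inactivated vector relative to saline. No member passed an adjusted p of 0.05 in limma (lowest adjusted p = 0.686), and over all 18625 probe sets the share that passed was 0.0%. In 3 genes, Bgn, Col4a2 and Col1a1, the 4 baculovirus arrays all lay above the 4 PBS arrays. With each array centred on its median, Col1a1 overlapped and Bgn and Col4a2 did not. These were 3 of 38 tested members, against 1.87% of the 10539 genes tested, and no member had the opposite separation, against 2.31% of genes. The same 3 genes were under an unadjusted p of 0.05, where 2.66% of all genes were in that direction and 3.92% in the other, and the methods' t-test gave 3 members at its unadjusted threshold and 0 after adjustment.

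A higher mean after inactivated baculovirus was seen for 29 of 38 tested members (76.3%) and a lower one for 9, while 55.7% of all genes tested had a higher mean. The median log2 fold change was 0.09 for the members and 0.02 for all genes. Because the members were chosen with earlier results of these data known, this and the counts above describe the set and test nothing. The count was lowest without PBS replicate 3, when 23 members were higher by mean and 15 lower, with a median of 0.05. The fold changes, on the scale of log2(intensity + 16), ran from -0.14 for Col12a1 to 0.47 for Bgn. By the brightest probe set of each gene, only Bgn and Col4a2 differed by 1.25-fold or more, and both were higher. Of all genes, 1.19% were that much higher and 0.835% that much lower. Further tested probe sets of Col1a1, Mmp2 and Timp2 were 1.31-fold, 1.31-fold and 1.28-fold higher, and no tested probe set of a member was 1.25-fold lower. That of Mmp2 passed the level filter only through its baculovirus arrays. The 95% interval lay within a 2-fold change either way for all 38 members, and within a 1.5-fold change for 34. In brain tissue such as this, more cells of a type and more RNA per cell cannot be told apart.

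**Figure D1:**
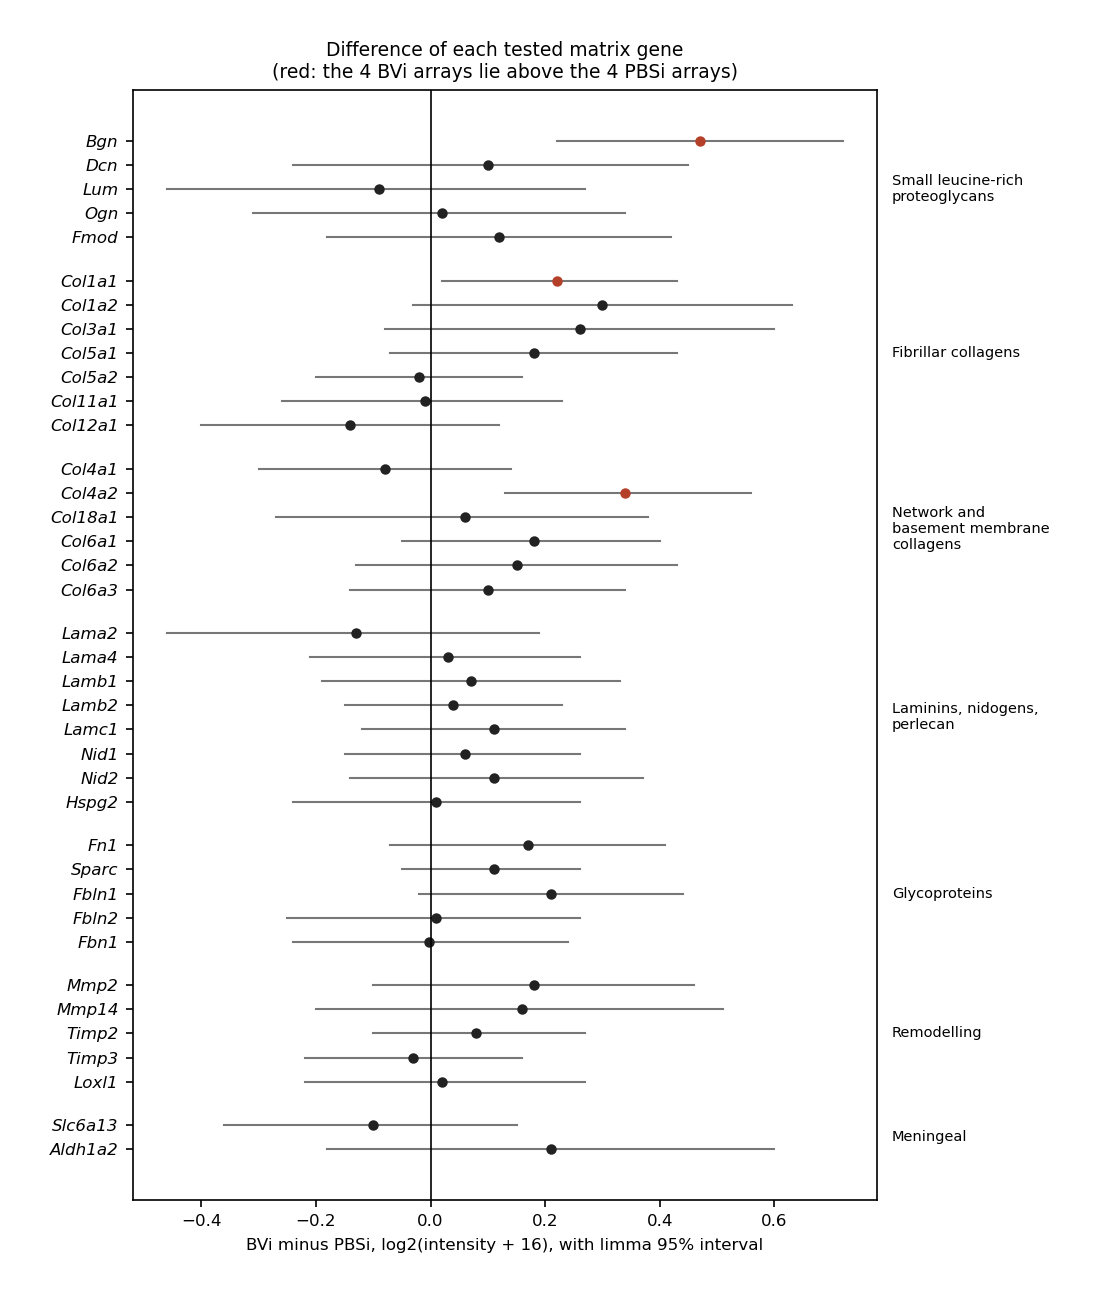
Log2 difference between inactivated baculovirus (BVi) and PBS (PBSi) for each of the 38 tested matrix genes, by class, as the limma estimate (points) with its 95% interval (lines). Red points are Bgn, Col1a1 and Col4a2, the genes whose BVi arrays all lie above the PBSi arrays, and 29 of the 38 points lie right of 0.

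Small leucine-rich proteoglycans bind collagen fibrils and growth factors, and of the 5 only Bgn separated the groups. Bgn encodes biglycan, which organises collagen and can also signal through Toll-like receptors. Its intensities were 121, 153, 153 and 117 after inactivated baculovirus and 87.8, 104, 78.3 and 104 after PBS. The lowest baculovirus array thus lay above the highest PBS array. The means were 136 ± 19.8 and 93.7 ± 12.8 (SD, n = 4 each), with a log2 fold change of 0.47 (95% interval 0.22 to 0.72, limma adjusted p = 0.686).

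Decorin and lumican, the closest relatives of biglycan in function, overlapped between the groups. Dcn measured 186, 143, 152 and 123 after inactivated baculovirus and 206, 128, 123 and 111 after PBS, a log2 fold change of 0.10 ± 0.16 (SE, limma adjusted p = 0.921). Lum measured 59.1, 38.6, 46.8 and 41.6 after inactivated baculovirus and 78.5, 42.9, 51.8 and 35.1 after PBS, at -0.09 ± 0.17 (limma adjusted p = 0.931). Both were highest on PBS replicate 1 and lowest on PBS replicate 4, and they are direct neighbours on chromosome 7. Without PBS replicate 1 the value of Lum turned to 0.08, while Dcn went up to 0.28, and Dcn was at 0.01 without baculovirus replicate 1.

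Fibromodulin, which guides fibril thickness, was set apart by a single array. Fmod measured 84.7, 75, 70.7 and 77.3 after inactivated baculovirus and 80.9, 87.4, 46.9 and 68.4 after PBS. Its log2 fold change of 0.12 ± 0.14 (SE, limma adjusted p = 0.880) turned to -0.03 without PBS replicate 3. Ogn, which encodes osteoglycin, stood at 0.02, and 2 of its 3 other tested probe sets had the opposite direction. In this class 4 members were higher by mean and 1 was lower, with a median of 0.10 that turned to -0.03 without PBS replicate 3.

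**Figure D2:**
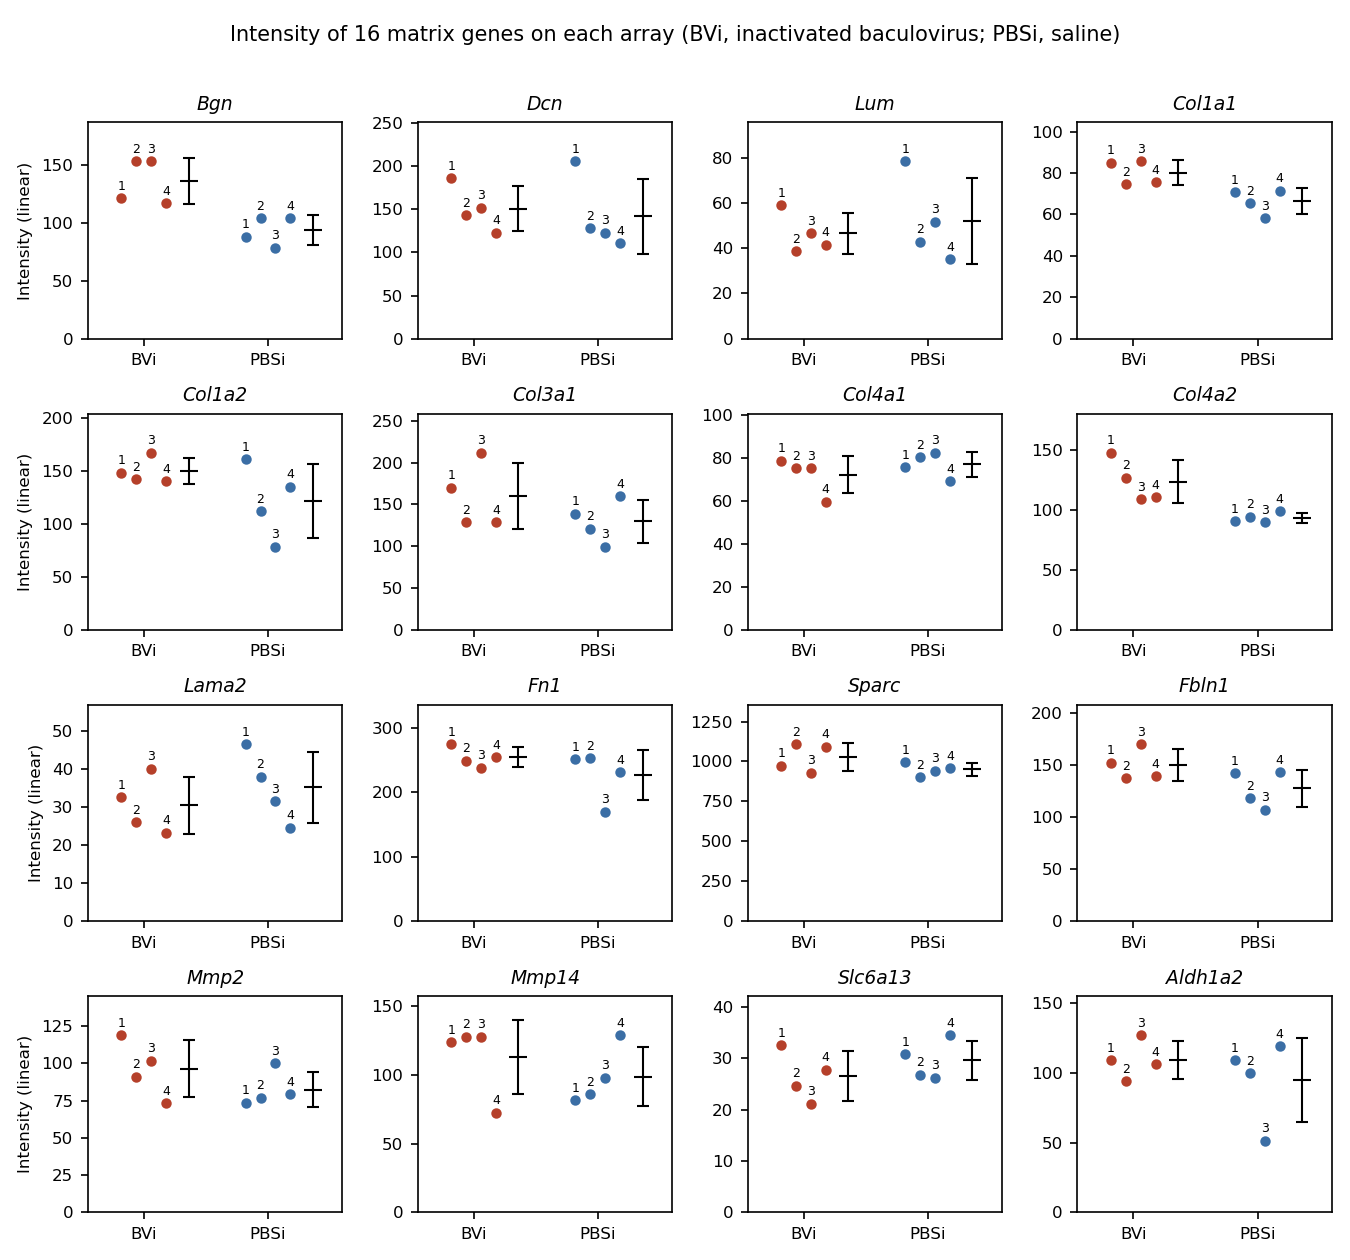
Intensity on a linear scale of 16 matrix genes on each array, with inactivated baculovirus (BVi, red) left of PBS (PBSi, blue). Numbers are the replicate, and the bars beside the points are the mean and SD of 4 arrays. Bgn, Col1a1 and Col4a2 do not overlap between groups, and PBSi replicate 3 is the lowest array for Col1a2, Col3a1, Fn1, Fbln1 and Aldh1a2.

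Among fibrillar collagens, the chains of type I and type III collagen, the main fibres of meninges and vessel sheaths, had higher means, and those of types V, XI and XII were mixed. Col1a1 measured 85.1, 74.6, 85.7 and 75.5 after inactivated baculovirus and 70.8, 65.3, 58.1 and 71.5 after PBS. The groups did not overlap, although the lowest baculovirus array and the highest PBS array were only 74.6 and 71.5. The means were 80.2 ± 5.97 and 66.4 ± 6.20 (SD, n = 4 each), a log2 fold change of 0.22 (limma adjusted p = 0.721, 95% interval 0.02 to 0.43). The other tested probe set of Col1a1 overlapped between groups, at 89.5, 73.1, 78.2 and 56.6 after inactivated baculovirus and 81.2, 67.9, 19.3 and 60.7 after PBS. It had the same direction, with a log2 fold change of 0.39 ± 0.25 (SE), and PBS replicate 3 stood far below its group there.

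Col1a2, which encodes the partner chain in the type I triple helix, did overlap. It measured 148, 142, 167 and 140 after inactivated baculovirus and 161, 112, 78.5 and 135 after PBS, with a log2 fold change of 0.30 ± 0.15 (SE, limma adjusted p = 0.750). The baculovirus arrays lay close together, while the PBS arrays reached from below them to just under the highest. Without PBS replicate 3 the value was 0.13, and without PBS replicate 1 it was 0.43. Its other tested probe set stood at 0.27.

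Col3a1, the type III chain, measured 170, 129, 212 and 129 after inactivated baculovirus and 139, 121, 99.6 and 160 after PBS. The groups overlapped, with the highest value on baculovirus replicate 3 and the lowest on PBS replicate 3. Its log2 fold change was 0.26 ± 0.16 (SE, limma adjusted p = 0.774), and 0.13 without baculovirus replicate 3. Col5a2, its direct neighbour on chromosome 9, stood at -0.02, with arrays between 110 and 130 after inactivated baculovirus and between 116 and 122 after PBS. Col5a1, which with Col5a2 sets fibril diameter, stood at 0.18, Col11a1 at -0.01 and Col12a1, a fibril-associated collagen, at -0.14. Of the class, 4 members were higher by mean and 3 lower, with a median of 0.18 that was 0.11 without PBS replicate 4 and 0.06 without both arrays numbered 3.

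Type IV collagen chains, the scaffold of every basement membrane, had fold changes of opposite sign by the brightest probe set of each gene. The sign of Col4a1 was not shared by its other probe set. Col4a2 measured 148, 127, 109 and 111 after inactivated baculovirus and 90.5, 94.6, 90.0 and 99.3 after PBS. All baculovirus arrays exceeded all PBS arrays, which lay within a narrow range. The means were 124 ± 18 and 93.6 ± 4.30 (SD, n = 4 each), with a log2 fold change of 0.34 (95% interval 0.13 to 0.56, limma adjusted p = 0.686).

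Col4a1, whose product winds into the same triple helix and whose gene start is 77 bases from that of Col4a2, measured 78.6, 75.2, 75.3 and 59.6 after inactivated baculovirus and 75.7, 80.4, 82.4 and 69.1 after PBS. The groups overlapped, and both were lowest on their replicate 4. The log2 fold change was -0.08 ± 0.10 (SE, limma adjusted p = 0.895). Its other tested probe set had the opposite sign, at 0.11 ± 0.10, and the mean of both probe sets gave 0.02. The difference between the changes of Col4a1 and Col4a2 was not tested.

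Of the other network collagens, type VI collagen, a beaded filament beside basement membranes, had higher means in all its 3 chains. Col6a1 measured 110, 94.9, 96 and 82 after inactivated baculovirus and 75.1, 94.8, 78 and 83.1 after PBS, at 0.18 ± 0.10 (log2 fold change ± SE, limma adjusted p = 0.772). Only baculovirus replicate 4 lay inside the range of the PBS arrays. Col6a2, the neighbour of Col6a1 on chromosome 20, measured 33.7, 26.8, 35.2 and 47.8 after inactivated baculovirus and 30.3, 31.1, 25.8 and 34.2 after PBS, at 0.15 ± 0.13 (limma adjusted p = 0.824). Its highest array was baculovirus replicate 4, the one lowest for Col6a1 in that group, and without it the value was 0.05. Col6a3 stood at 0.10, and Col18a1, which encodes a basement membrane collagen that yields endostatin, at 0.06. Col8a1, a collagen of vessel walls, was below the level filter, between 18.3 and 37.0 after inactivated baculovirus and between 9.18 and 26.6 after PBS.

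Laminins, nidogens and perlecan assemble the rest of the basement membrane, and their values stayed closest to 0. Of 8 tested members 7 were higher by mean and 1 lower, with a median of 0.05 that was 0.01 without PBS replicate 3. Lamc1, the gamma chain shared by most laminins, measured 169, 151, 148 and 134 after inactivated baculovirus and 145, 164, 128 and 117 after PBS. The groups overlapped, at 0.11 ± 0.11 (log2 fold change ± SE, limma adjusted p = 0.849). Nid2, a linker between laminin and type IV collagen, measured 48.9, 46.3, 53.3 and 45.5 after inactivated baculovirus and 34.9, 51.1, 38.2 and 52.0 after PBS, at 0.11 ± 0.12 (limma adjusted p = 0.863). Its PBS arrays fell into a higher and a lower pair, with the baculovirus arrays between or just above them.

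Lama2, the alpha chain of muscle, fibroblasts and vessel-associated astrocytes, was the laminin with a lower mean. It measured 32.6, 26, 40.1 and 23.3 after inactivated baculovirus and 46.6, 38, 31.5 and 24.6 after PBS, at -0.13 ± 0.15 (log2 fold change ± SE, limma adjusted p = 0.878). Like Dcn and Lum it was highest on PBS replicate 1. The endothelial alpha chain Lama4 stood at 0.03, Lamb1 at 0.07, Lamb2 at 0.04, Nid1 at 0.06 and Hspg2, which encodes perlecan, at 0.01. Lama5, an alpha chain of mature endothelium, was below the level filter on its 3 probe sets, the brightest of which lay between 4.85 and 12.6 after inactivated baculovirus and between 11.4 and 16.8 after PBS.

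Matrix glycoproteins link cells to collagen. Fbln1, a fibulin of basement membranes and elastic fibres, measured 152, 137, 170 and 139 after inactivated baculovirus and 142, 118, 107 and 143 after PBS, at 0.21 ± 0.11 (log2 fold change ± SE, limma adjusted p = 0.742). Fn1, which encodes fibronectin, the adhesive protein of wounds, measured 275, 249, 238 and 254 after inactivated baculovirus and 251, 253, 170 and 231 after PBS, at 0.17 ± 0.11 (limma adjusted p = 0.780). In both genes the groups overlapped and PBS replicate 3 was the lowest array. Without it Fn1 stood at 0.05 and Fbln1 at 0.14.

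Sparc, a collagen-binding protein that endothelial cells and glia secrete, measured 974, 1110, 930 and 1093 after inactivated baculovirus and 997, 903, 943 and 958 after PBS. Its groups overlapped, at 0.11 ± 0.07 (log2 fold change ± SE, limma adjusted p = 0.787). The other probe set of Sparc measured 638, 639, 697 and 629 after inactivated baculovirus and 647, 798, 239 and 634 after PBS, with PBS replicate 3 far below the rest. Fbln2 stood at 0.01 and Fbn1, the fibrillin of elastic fibres, at -0.00217. Fbln5, Postn and Thbs2, genes of elastic fibre assembly and of wound matrix, were below the level filter. They lay between 6.46 and 18.7, 7.42 and 19.7, and 16.8 and 27.5 after inactivated baculovirus, and between 13.3 and 16.9, 12 and 20.7, and 17.2 and 22.1 after PBS. By mean, 4 members of the class were higher and 1 lower, and its median of 0.11 was 0.05 without PBS replicate 3.

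Enzymes that cut or crosslink the matrix did not separate the groups either. Mmp2, a gelatinase that degrades type IV collagen, measured 119, 91.2, 102 and 73.3 after inactivated baculovirus and 73.8, 77.1, 100 and 79.2 after PBS, at 0.18 ± 0.13 (log2 fold change ± SE, limma adjusted p = 0.794). Baculovirus replicate 4 was its lowest array and PBS replicate 3 the highest of its group. A dimmer probe set of Mmp2 had a larger difference, with 26.8, 31.5, 40.6 and 32.8 after inactivated baculovirus and 17.6, 19.5, 28.5 and 19.9 after PBS. There only PBS replicate 3 reached into the baculovirus range, and the log2 fold change was 0.39 ± 0.13 (SE, limma adjusted p = 0.686). Its mean was 32.9 after inactivated baculovirus and 21.4 after PBS, the latter under the level filter of about 26. This probe set thus passed the filter only through its baculovirus arrays.

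Mmp14, the membrane-bound activator of Mmp2, measured 124, 128, 128 and 72.6 after inactivated baculovirus and 81.9, 85.9, 98.1 and 129 after PBS, at 0.16 ± 0.16 (log2 fold change ± SE, limma adjusted p = 0.863). Baculovirus replicate 4 lay below every other array, and without it the value was 0.33. Timp2, an inhibitor of these proteases, measured 493, 492, 507 and 498 after inactivated baculovirus and 552, 402, 465 and 468 after PBS, at 0.08 ± 0.09 (limma adjusted p = 0.861). The 4 baculovirus arrays fell between the 2 extremes of the PBS arrays. A dimmer probe set of Timp2 stood at 0.35 ± 0.19 (SE, limma adjusted p = 0.753). Its groups overlapped, with the lowest value on PBS replicate 3. Timp3, an inhibitor held in the matrix, stood at -0.03 and the crosslinking enzyme Loxl1 at 0.02. Its relative Lox was below the level filter, between 20 and 30.2 after inactivated baculovirus and between 18.3 and 26.7 after PBS.

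The meningeal markers went apart in sign. Aldh1a2, the retinoic acid-making enzyme of meningeal fibroblasts, measured 109, 93.9, 127 and 106 after inactivated baculovirus and 109, 100, 51.5 and 119 after PBS, at 0.21 ± 0.18 (log2 fold change ± SE, limma adjusted p = 0.824). The groups overlapped, with PBS replicate 3 far below the other 7 arrays, and without it the value turned to -0.01. Slc6a13, a GABA and taurine transporter of meninges, measured 32.5, 24.7, 21.2 and 27.8 after inactivated baculovirus and 30.8, 26.8, 26.2 and 34.5 after PBS, at -0.10 ± 0.12 (limma adjusted p = 0.879). These groups also overlapped, with the lowest value on baculovirus replicate 3.

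Across the set, certain arrays were the lowest or highest for many members, and this was not tested against the group difference. PBS replicate 3 was the lowest array for 12 of 38 members (31.6%), among them Bgn, Col1a1, Col1a2, Col3a1, Col4a2, Fmod, Fn1 and Aldh1a2, while it was lowest for 18.8% of all genes tested. PBS replicate 4 was lowest for 9 members (23.7%, against 10.1% of genes), including Dcn, Lum and Lamc1. Baculovirus replicates 1 and 3 were the highest array for 10 and 8 members (26.3% and 21.1%), where 12% and 9.61% of genes were highest. Baculovirus replicate 4 was highest for 1 member and lowest for 7 (2.63% and 18.4%, against 17% and 14.7% of genes). The mean level of the 38 genes, with each gene's mean over the arrays set to 0, was 0.13, -0.01, 0.10 and -0.04 on baculovirus replicates 1 to 4 and 0.04, -0.02, -0.15 and -0.05 on PBS replicates 1 to 4. On this scale the groups overlapped, and PBS replicate 3 was the lowest of the 8 arrays. Within groups the members varied somewhat more than other genes, with a median SD of 0.159 against 0.138 on the log2 scale, and proteoglycans had 0.264.

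**Figure D3:**
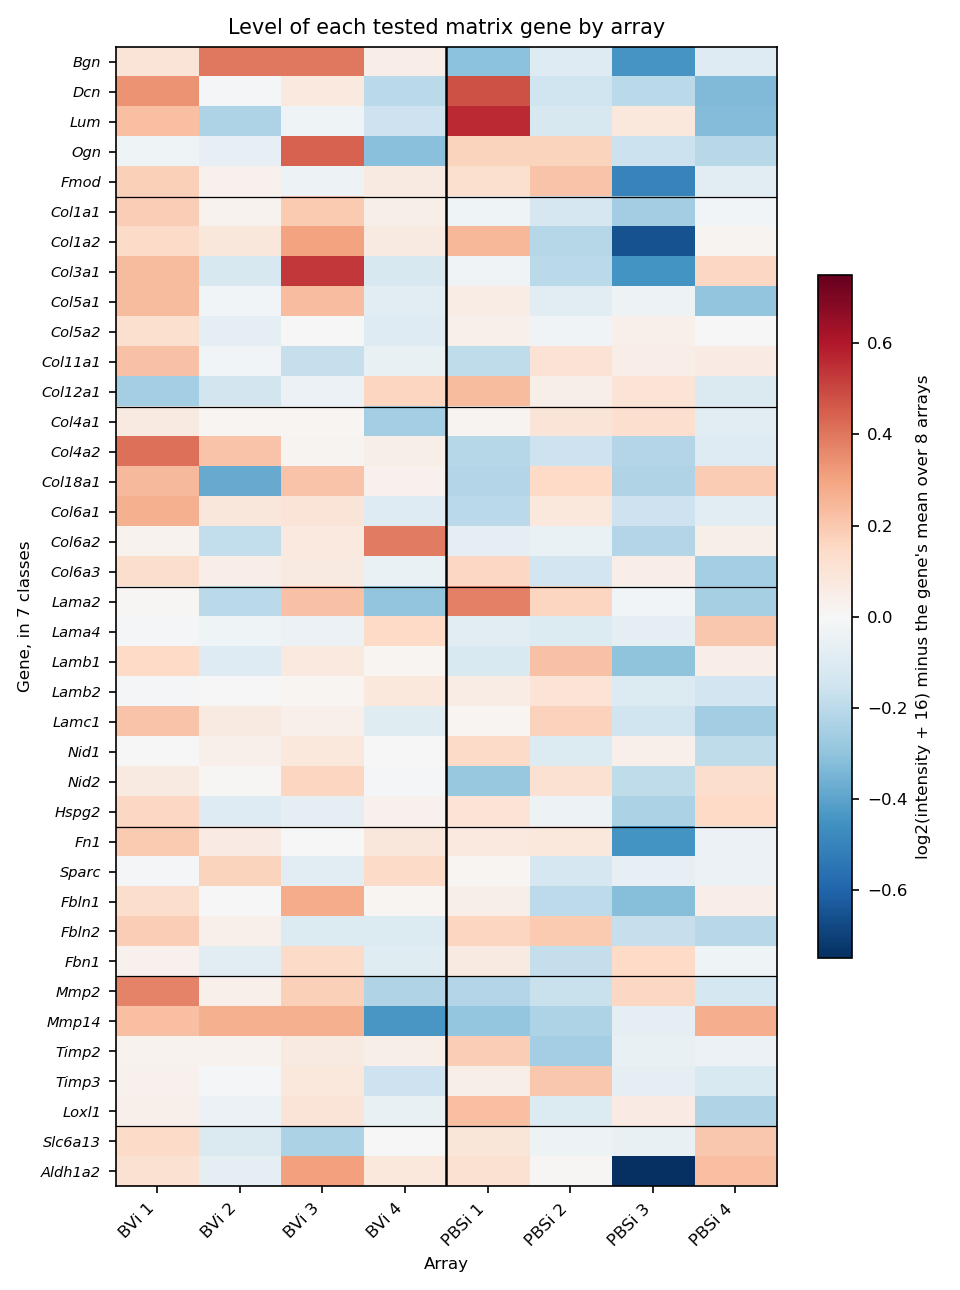
Level of the 38 tested matrix genes on each array as log2(intensity + 16) minus the gene's mean over the 8 arrays (red higher, blue lower), with BVi left of the line and PBSi right of it, and classes parted by lines. The blue cells of PBSi 3 include Col1a2, Fn1 and Aldh1a2, and Dcn and Lum are highest on PBSi 1.

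The 3′ to 5′ signal of beta-actin, a measure of RNA quality and labelling, was set beside these levels. Signal at the 3′ end of the beta-actin transcript exceeded that at its 5′ end, on the log2 scale, by 0.364, 0.507, 0.402 and 0.722 on the baculovirus arrays and 0.567, 0.624, 0.460 and 0.408 on the PBS arrays (exact two-sided permutation p = 0.886 between groups, where the smallest possible is 0.0286). Baculovirus replicates 1 and 3, with the highest matrix levels, had the 2 lowest differences, and PBS replicate 3, with the lowest matrix level, had the fourth lowest. The part of RNA quality in the array pattern was not tested. With this difference as a covariate, an alternative chosen after the data had been seen, 29 members again had a higher mean, the median stayed at 0.09 and Bgn stood at 0.46 (limma adjusted p = 0.601).

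**Figure D4:**
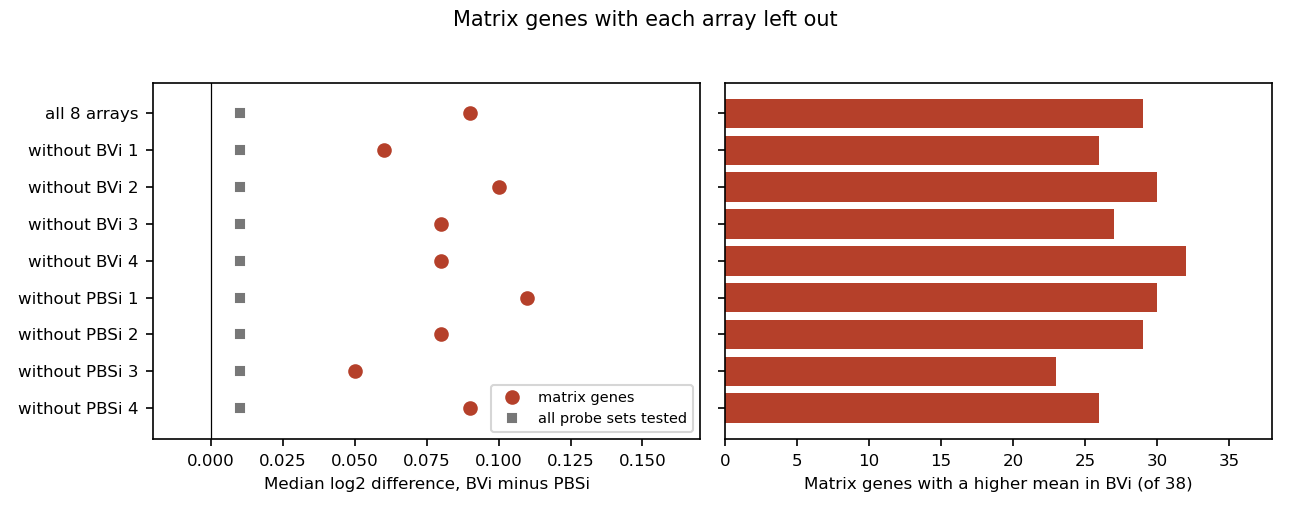
Left, the median log2 difference between BVi and PBSi over the matrix genes (circles) and over all probe sets tested (squares), with all 8 arrays and with each array left out. Right, how many of the 38 matrix genes had a higher mean in BVi. Without PBSi replicate 3 both are lowest, at 0.05 and 23 genes.

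Genes that make, receive or regulate matrix were read from lists that are not members. Collagen folding and processing had 13 of 18 tested genes with a higher mean, 5 with a lower one and a median log2 fold change of 0.08. Its genes with the smallest p were Fkbp10, a collagen chaperone, at 0.24 ± 0.11 (log2 fold change ± SE), and the prolyl hydroxylase subunits P4ha3 at 0.30 ± 0.14 and P4ha2 at 0.14 ± 0.08. Fkbp10 and P4ha2 separated the groups, with 33.3 to 45.2 and 195 to 219 after inactivated baculovirus against 31.8 to 32.7 and 178 to 191 after PBS. They were 2 of the 18 genes, where 1.87% of all genes tested separated in that direction. In the other direction it was 0 of the 18, against 2.31% of all genes. Other collagens, laminins and matrix proteins had 20 of 31 higher, with Col5a3 at 0.34 ± 0.13 and Vtn, which encodes vitronectin, at 0.23 ± 0.10. Of these 31 genes only Vtn separated the groups, with 134 to 146 after inactivated baculovirus and 105 to 133 after PBS. Col25a1, a neuronal transmembrane collagen, had a lower mean, at -0.30 ± 0.09. None of these genes passed (limma adjusted p between 0.686 and 0.755).

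Matrix receptors and TGF-beta signalling, the main inducer of matrix genes, were read in the same way. The receptors had 11 higher and 9 lower of 20 (55.0% higher), with a median of 0.01. The TGF-beta list had 12 higher and 7 lower of 19 (63.2% higher), with a median of 0.05. Of all genes tested, 55.7% had a higher mean. Skil, a transcriptional brake on TGF-beta signalling, measured 410, 395, 387 and 405 after inactivated baculovirus and 462, 479, 467 and 482 after PBS. All its baculovirus arrays lay below all PBS arrays, at -0.23 ± 0.06 (log2 fold change ± SE, limma adjusted p = 0.686). Smad4, the common mediator, stood at -0.21 ± 0.10, and the endothelial receptor Acvrl1 at 0.26 ± 0.13. Among receptors the syndecan Sdc2 stood at -0.31 ± 0.11, with 157 to 183 after inactivated baculovirus and 194 to 269 after PBS. The integrin subunit Itgav stood at -0.19 ± 0.10. Itgb4, another integrin subunit, separated the groups the other way, at 0.23 ± 0.11, with 33.7 to 42.6 after inactivated baculovirus and 25.4 to 33.3 after PBS. Without overlap were 1 receptor of 20 in each direction and, of the 19 TGF-beta genes, only Skil. Of all genes tested, 1.87% separated as higher and 2.31% as lower. None of the genes named here passed (limma adjusted p from 0.686).

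Markers of the cells that make matrix were set beside these values. The tissue carried striatal genes on every array, with the dopamine receptor Drd1 between 280 and 441 and Ppp1r1b between 976 and 1393. Markers of meningeal and perivascular fibroblasts that are not members had 11 of 12 tested genes with a higher mean and a median log2 fold change of 0.21. The organic anion transporter Slc22a8 had the smallest p, at 0.32 ± 0.11 (log2 fold change ± SE, limma adjusted p = 0.686), and its relative Slc22a6 the highest value, at 0.39 ± 0.16 (limma adjusted p = 0.714). Slc22a6 measured 36.2, 37.1, 31.5 and 37.0 after inactivated baculovirus and 30.6, 17.3, 14.1 and 34.9 after PBS. Its PBS arrays averaged below the level filter of about 26, so it was tested only through its baculovirus arrays. The mean level of these 12 markers was 0.16, 0.08, 0.12 and -0.01 on baculovirus replicates 1 to 4 and 0.14, -0.17, -0.30 and -0.03 on PBS replicates 1 to 4. PBS replicate 3 was thus the lowest array for these markers as for the matrix genes, and without it their median was 0.12. Their summed intensity ran from 4878 to 5160 after inactivated baculovirus and from 4019 to 5197 after PBS, and no tested marker was at 0. The part of fibroblast content in the matrix values was not tested.

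The medians of the vessel marker lists lay near 0. Endothelial markers had 12 of 18 tested with a higher mean, a median of 0.04 and summed intensities of 2537 to 2959 after inactivated baculovirus and 2614 to 2830 after PBS, with Tie1, the marker of smallest p, at 0.28 ± 0.11 (log2 fold change ± SE). The endothelial marker Ly6c had the highest value, 0.96 ± 0.47 (limma adjusted p = 0.742). It measured 214, 109, 122 and 16.5 after inactivated baculovirus and 27.4, 32.6, 22.5 and 93.9 after PBS, so that 3 baculovirus arrays lay above all PBS arrays and replicate 4 below them. Mural cell markers had 10 of 13, a median of 0.04 and sums of 870 to 911 and 796 to 913, with Tagln at 0.24 ± 0.13. Microglia and macrophage markers had 13 of 15 higher, a median of 0.12 and sums of 3230 to 4163 after inactivated baculovirus and 2854 to 4148 after PBS, with Cx3cr1 at 0.23 ± 0.11. Choroid plexus markers varied widely between arrays in both groups: their mean level was 0.68, 0.25, 0.04 and -0.18 on baculovirus replicates 1 to 4 and 0.32, 0.25, -0.11 and -1.26 on PBS replicates 1 to 4. Their median of 0.27 turned to -0.09 without PBS replicate 4 and was 0.17 without baculovirus replicate 1. All 8 tested choroid plexus markers had a higher mean, their sums were 2056 to 2853 after inactivated baculovirus and 344 to 2655 after PBS, and Folr1 stood at 0.45 ± 0.26. For the matrix genes, leaving out PBS replicate 4 gave 26 members with a higher mean and the same median of 0.09. No marker of these lists passed (limma adjusted p from 0.714 for those named), and their part in the matrix values was not tested.

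**Figure D5:**
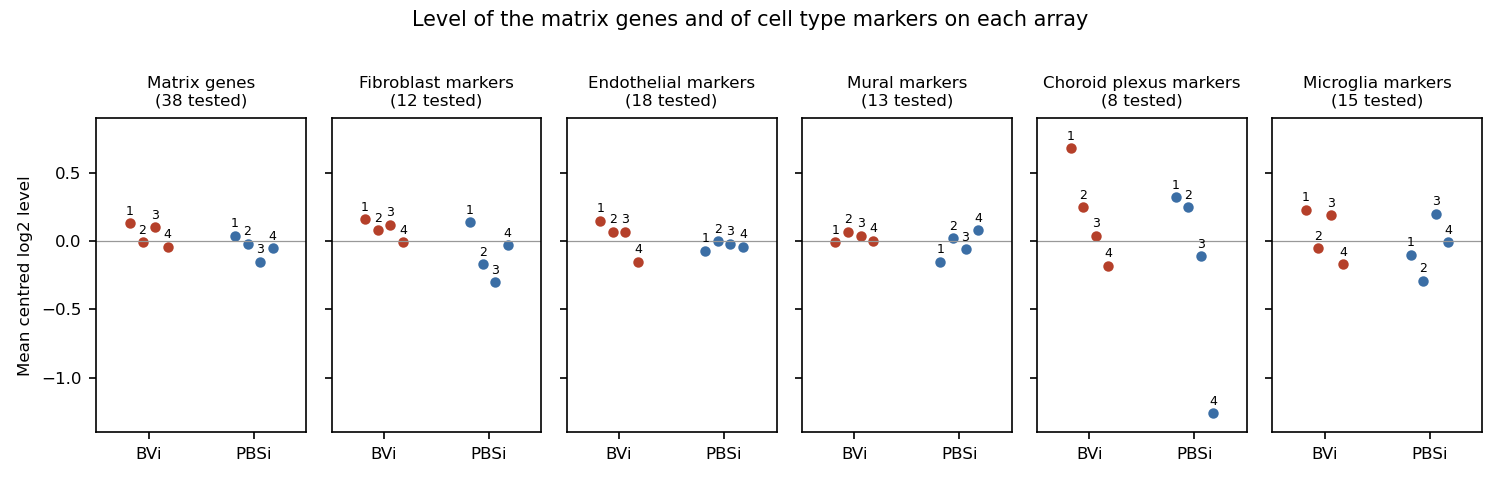
Mean log2 level on each array of the matrix genes and of marker lists of 5 cell classes, with each gene's mean over the 8 arrays set to 0, for BVi (left, red) and PBSi (right, blue), numbered by replicate. Matrix genes and fibroblast markers are both lowest on PBSi 3, and choroid plexus markers are at -1.26 on PBSi 4.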

How the data were processed

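Brain RNA of 8 rat samples, 4 with inactivated baculovirus and 4 with PBS, was read on 1-colour Affymetrix arrays. The deposited file holds linear intensities, 1 per probe set and array. The submitters' processing notes name GCOS and GCRMA, neither tied to this file, and per the labels the GeneSpring values were not supplied. The authors had scaled them: the 2% trimmed mean lay between 100.021 and 100.023 on each array. Per the labels' protocols the cRNA was made with one kit or another, and no label says which array had which.

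Array columns were matched by sample name. Of 31099 probe sets, 57 controls were left out, and 20826 of the others carry 1 symbol, 436 several and 9780 none. All 44 member symbols matched RefSeq through the gene number. Intensities became log2(intensity + 16), without further normalization since array medians lay between 5.74 and 5.85. Probe sets above the 40th percentile of the mean level were tested two-sided by limma (version 3.58.1, R 4.3.3; lmFit, then eBayes allowing for a variance trend), with Benjamini-Hochberg adjustment over all 18625, at 0.05. Dim genes are understated by the added 16. Precision is limited by how many arrays there are: for the median probe set the 95% interval reached 0.231 to either side. In simulated data with these 18625 probe sets, 0% of 200 changed by 1.25-fold, 74% of those changed by 1.5-fold and 98.5% of those changed by 2-fold were recovered. All 200 changed at once, with independent noise. The adjusted p depends on how many probe sets change, so these shares do not give the recovery of a single gene.

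The members, classes and lists were chosen with earlier results of these data known. Values are given for the 3 members of lowest p in each of the 6 larger classes and for a fixed set (Bgn, Dcn, Lum, Col1a1, Col1a2, Col3a1, Col4a1, Col4a2, Lama2, Fn1, Sparc, Slc6a13 and Aldh1a2), and for the 3 genes of smallest p of each pathway list and 1 of each cell type list. Other members are given by their estimate or range. Mmp2's, Col1a1's, Sparc's and Timp2's further probe sets, the cell type markers of highest value, the arrays that stand out and the per-array values of pathway genes were chosen after the values were seen. Deviations from the group means correlated between -0.005 and 0.016 for same-numbered arrays and between -0.106 and 0.075 for differently numbered ones. With 4 arrays per group these values cannot show whether arrays shared an animal.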

Additional observations from a re-analysis of the deposited data

Results flagged for a closer look

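In 48 groups of 4 arrays checked, 1 value lay far from the others by Dixon's criterion, where chance gives about 2.4. Mmp14 was at 72.6 on baculovirus replicate 4 and between 124 and 128 on the other baculovirus arrays. The 4 PBS arrays lay between 81.9 and 129.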

How the results depend on the processing

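In each alternative run, 0 members passed, and none of the 22 members given with values passed (lowest adjusted p = 0.346, for Bgn without PBS replicate 4). Besides leaving arrays out, the choices were adding 1 or 64 before the log, median centring or quantile normalization, a filter at the 60th percentile or none, no variance trend, robust eBayes, array weights, the methods' t-test, averaging the probe sets of each gene and, chosen after the data had been seen, the beta-actin covariate and leaving out both arrays numbered 3. The fit with the replicate number as a block also gave 0 members and a median of 0.09, with Bgn at 0.47. No array correlated best with the same-numbered array of the other group. Members with a higher mean numbered 22 of 25 to 31 of 44 over the filters, 24 of 38 with median centring and 25 without the arrays numbered 3, where the median was 0.03. With 1 array left out they numbered 23 to 32, and the median ran from 0.05 to 0.11. Members without overlap numbered 3 to 5 with 1 array left out, with 5 without PBS replicate 1. They numbered 3 with quantile normalization and 2 with median centring, where Col1a1 overlapped.

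Signs turned as follows, and the cause was not tested. Averaging each gene's probe sets gave 0.02 for Col4a1, 0.06 for Itgav and 0.03 for the astrocyte median. Without both arrays numbered 3, Aldh1a2 and the meningeal median were at -0.08 and the TGF-beta median at -0.03. Array weights gave a meningeal median of -0.00257, quantile normalization an astrocyte median of 0.01, median centring a receptor median of -0.01 and the 60th percentile a TGF-beta median of -0.14. With 1 array left out, Aldh1a2 ran from -0.01 to 0.32, Fmod from -0.03 to 0.21 and Lum from -0.22 to 0.08. Over the same settings the medians ran from -0.05 to 0.02 for astrocytes, -0.09 to 0.42 for choroid plexus, -0.07 to 0.14 for meningeal markers, -0.02 to 0.06 for receptors and -0.03 to 0.18 for proteoglycans. In simulation at this size, with 200 probe sets changed at once, 0% of 1.25-fold, 74% of 1.5-fold and 98.5% of 2-fold changes were called. Recovery of a single changed gene was not simulated. With median centring 44.1% of all probe sets tested had a higher mean, against 53.7% without it and 50.8% to 56.1% under the other filters. These are shares of probe sets, while the 55.7% given earlier is of genes with 1 probe set each.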

Other observations

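Marker lists of striatal neurons, oligodendrocytes and astrocytes had negative medians. Of 13 tested striatal genes 2 were higher by mean and 11 lower after inactivated baculovirus, with a median log2 fold change of -0.10. Their mean level was -0.20, -0.04, -0.13 and 0.14 on baculovirus replicates 1 to 4 and -0.18, 0.12, 0.06 and 0.22 on PBS replicates 1 to 4. The array levels overlapped, and the median was -0.01 without baculovirus replicate 1. Bcl11b, a transcription factor of projection neurons, averaged 310 ± 38.4 on the baculovirus arrays and 413 ± 63.6 on the PBS arrays (SD, n = 4 each). Oligodendrocyte markers had 3 of 11 tested genes with a higher mean and a median of -0.03, which was -0.000329 without baculovirus replicate 1, with Ugt8, an enzyme of myelin lipid synthesis, at -0.23 ± 0.12 (log2 fold change ± SE). Astrocyte markers had 5 of 13 and a median of -0.01, which was 0.01 with quantile normalization and 0.02 without PBS replicate 4, with the bicarbonate transporter Slc4a4 at -0.14 ± 0.07. None of these genes passed (limma adjusted p from 0.686). Their relation to the matrix values was not tested.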
